A study of Mus musculus with 8 samples.

Results

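The genes described here mark cortical GABAergic interneurons: 28 genes for GABA synthesis and for interneuron subclasses, other than neuropeptides, picked by symbol from the 55416 genes of the count table. All 28 symbols matched a single row, and all 28 passed the filter on low counts and were tested. Polyadenylated RNA from cerebral cortex was sequenced in 4 libraries from mice with the genotype Ago2 L192P/+ (L192P) and 4 libraries from wild-type mice (WT). Ago2 encodes Argonaute 2, the protein that holds miRNAs and silences the mRNAs they pair with. The L192P mice carry 1 knock-in copy of a variant linked to a human neurodevelopmental disorder, made by genome editing in C57BL/6JUke embryos and bred to wild-type mice, and the WT mice carry no edited copy. The allele is present in every cell type and was not restricted to interneurons. Age, sex and the number of animals behind a library are not given in the sources used here, so the p-values below measure the spread between these libraries.

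Interneurons release GABA and form the inhibitory part of cortical circuits. They are born in the ganglionic eminences of the embryo and migrate into the cortex. The medial eminence gives the parvalbumin and somatostatin classes, and the caudal eminence gives most cells with Vip, Lamp5, Sncg or calretinin. Every class makes and packages GABA with the same enzymes and transporter, while calcium-binding proteins, transcription factors, receptors and matrix proteins tell the classes apart. In bulk tissue, a change in the number of cells of a type and a change in RNA per cell cannot be told apart.

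The miRNAs below are shown because Argonaute 2 acts through their seeds, and matches to the seeds were searched for in the 3′ UTRs of these genes. The study's text discusses miR-5121 and miR-92-3p, and its legend for the miR-92-3p panel names miR-29-3p instead. Both miR-9-5p and let-7a-5p are well known in brain, and the study's supplement lists a let-7a-5p sequence variant found only with the L192P protein. Capitals mark the seed, bases 2 to 8, and the sequences are from RefSeq, build GRCm38.p6. None of these 5 shares its seed with another.
miR-5121: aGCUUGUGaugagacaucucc
miR-92a-3p: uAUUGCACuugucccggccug
miR-29a-3p: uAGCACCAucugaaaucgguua
let-7a-5p: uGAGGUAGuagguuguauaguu
miR-9-5p: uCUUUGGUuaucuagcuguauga

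Of the 5 genes that passed the test below, 4 hold an exact match to at least 1 of these seeds in the 3′ UTR of their main transcript. The share of all genes with a match to at least 1 of the 5 was not worked out, so this count has no background beside it. A longer 3′ UTR has more room for a match, and the lengths were 7881 bases (Ndnf), 6308 (Igf1), 3528 (Gad2) and 546 (Calb2). The windows are 22 bases of GRCm39, written on the strand of the gene, with the match to the seed in capitals.
Gad2, miR-9-5p, chr2:22581461-22581482, plus strand: gcggcctgctttcaACCAAAGg
Calb2, miR-9-5p, chr8:110869210-110869231, minus strand: ctgtcttcttgtttACCAAAGa
Ndnf, miR-9-5p, chr6:65686186-65686207, plus strand: cagaggcattacacACCAAAGa
Ndnf, miR-92a-3p, chr6:65683035-65683056, plus strand: aaattgatccatctGTGCAATg
Igf1, miR-29a-3p, chr10:87767519-87767540, plus strand: gttttttagtacaaTGGTGCTa
Igf1, miR-29a-3p, chr10:87770153-87770174, plus strand: cagctacgccaatgTGGTGCTa
Igf1, let-7a-5p, chr10:87767942-87767963, plus strand: aatatgtcatctacCTACCTCa

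The sequence searched for miR-9-5p was ACCAAAG on the transcribed strand, and 4 of the 28 members (Gad2, Calb2, Ndnf and Crhbp) hold it, against 15.5% of 14887 genes with a 3′ UTR. For miR-92a-3p it was GTGCAAT, found in 4 members and in 8.07% of genes. For miR-29a-3p it was TGGTGCT, found in 5 members and in 16.7% of genes. For let-7a-5p it was CTACCTC, found in 2 members and in 11.6% of genes. For miR-5121 it was CACAAGC, found in 6 members and in 11.2% of genes, and none of those 6 passed the test. No such match was found in Sncg, the member with the largest fold change. These matches are descriptions of the sequence, and binding was not measured here.

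Sncg, Calb2, Igf1, Ndnf and Gad2 were higher in L192P cortex, and the other 23 members did not pass the test. Sncg (gamma-synuclein, a marker of a caudal interneuron subclass) and Calb2 (calretinin) differed most, at 2.46-fold and 2.16-fold of the WT mean. Igf1 (a growth factor) stood at 1.5-fold, Ndnf (a secreted protein of layer 1 interneurons) at 1.42-fold and Gad2 (the GABA-synthesizing enzyme GAD65) at 1.27-fold. These 5 of 28 members were called higher by DESeq2 at an adjusted p under 0.05, where 0.789% of the 18627 genes tested were called higher. None was called lower, against 0.569% of all genes. At an unadjusted p under 0.05, DESeq2 gave 9 members higher and 1 lower (Pvalb), against 1758 of all 18627 genes tested in either direction. After adjustment, edgeR and limma-voom also called 0 members lower.

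The log2 fold changes of the other 23 members lay between -0.22 (Pvalb) and 0.47 (Chodl), and those of Chodl, Nr2f2 and Adarb2 were larger than that of Gad2. The median log2 fold change over the 28 members was 0.11, against 0.0019 over all genes tested, and 21 members (75%) had a value above 0, against 50.6% of all genes. In 6 members (the 5 called and Adarb2) every L192P library lay above every WT library, a pattern met by 3.01% of all genes. No member had every L192P library below every WT library, which held for 2.96% of all genes.

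How many members passed depended on the model and on single libraries. Same-numbered libraries of both genotypes deviated together, so a fit with the replicate number as a block was also made. It called 8 members higher, adding Nr2f2, Nos1 and Adarb2, where it called 1.82% of 12536 genes higher, and it called Pvalb lower, where it called 2.43% of genes lower. edgeR and limma-voom each called 2 members higher, Calb2 and Sncg, where they called 0.261% and 0.225% of all genes higher. Without WT replicate 2 or without WT replicate 3, Sncg was the only member called higher by DESeq2, where 0.461% and 0.467% of all genes were called higher. Without WT replicate 1 the count was 8, and the share over all genes was 1.66%. Sncg was called under all 17 alternatives, with adjusted p from 2.11e-05 to 0.0487.

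**Figure D1:**
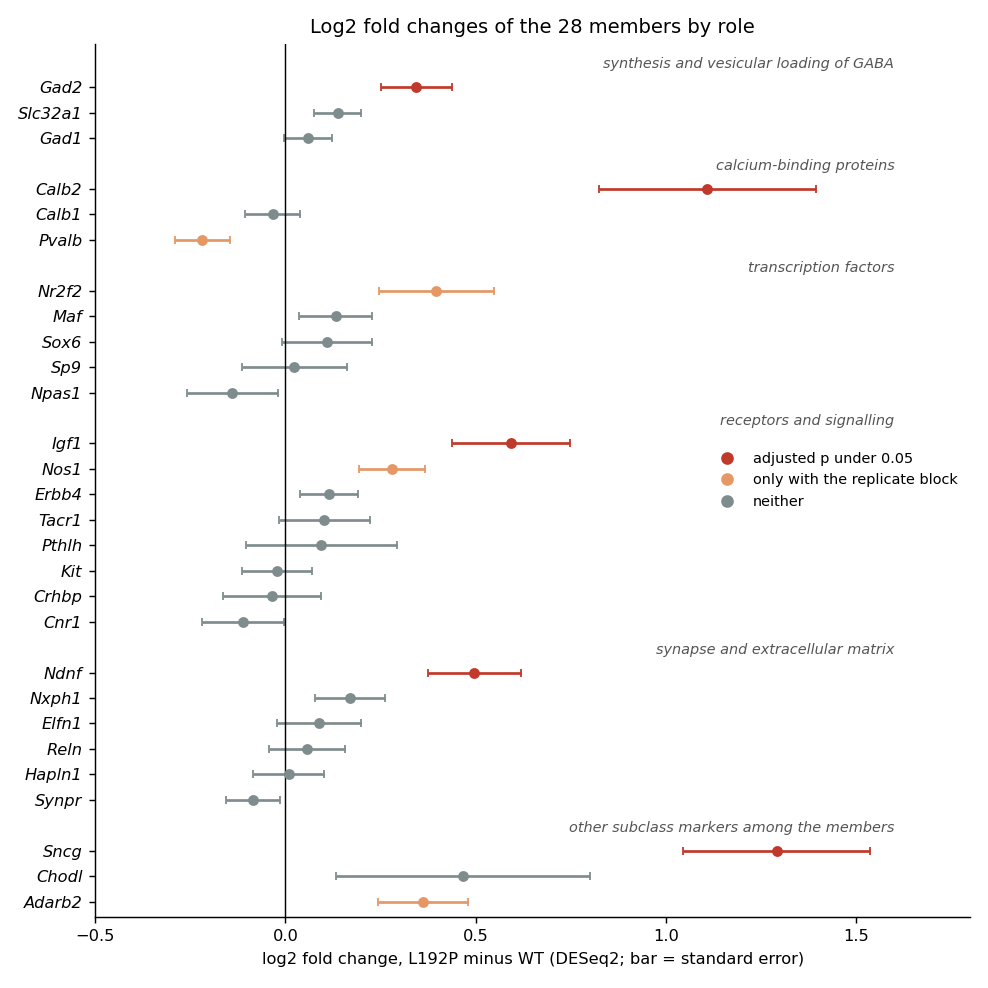
Log2 fold change of L192P over WT from DESeq2 for each of the 28 members, grouped by role (points, with the standard error as bars), with 4 libraries per genotype. Red points had an adjusted p under 0.05, orange points had one only with the replicate block, and grey points had neither. Sncg at 1.29 and Calb2 at 1.11 lie far to the right, while most members lie close to 0.

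Library depth was 20396357 to 43575900 counts, and the members together took 39666 to 78810 counts per library, with single values from 15 to 20029. Normalized counts below are counts divided by the DESeq2 size factor of the library. The members' normalized counts summed to 0.208% ± 0.00575 of all normalized counts in L192P and 0.192% ± 0.0124 in WT (SD, n = 4 each). Replicate 1 of both genotypes stood apart in sex-linked RNA: Xist was at 0.9342 and 1.821 normalized counts there and at 5185 to 7257 in the other 6 libraries. Chromosome Y genes summed to 3314 and 3218 normalized counts in those 2 libraries and to 217.7 to 459.7 in the others. Each genotype holds 1 such library, and without both of them DESeq2 called 7 members higher, the 5 named above among them, and 1.65% of all genes higher.

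The synthesis and vesicular loading of GABA rest on Gad1, Gad2 and Slc32a1, which all interneurons use. Gad1 encodes GAD67, the enzyme that makes most GABA in the cell body. Gad1 was at 11900, 13393, 11332 and 12291 normalized counts in L192P replicates 1 to 4 and at 11974, 11314, 12087 and 11566 in WT replicates 1 to 4. The groups overlapped, and the log2 fold change was 0.06 (SE 0.062, DESeq2 adjusted p = 0.885).

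Gad2 encodes GAD65, which is tied to synaptic vesicles at nerve endings. It gave 7107, 7233, 6849 and 7730 normalized counts in the L192P libraries and 6717, 4722, 5841 and 5520 in the WT libraries. All 4 L192P values were above all 4 WT values, but WT replicate 1 lay just under the lowest of them. The means were 7230 ± 370 and 5700 ± 825 (SD, n = 4 each), with a log2 fold change of 0.34 (SE 0.093, DESeq2 adjusted p = 0.0235). The call was lost without L192P replicate 2 or 4 and without WT replicate 2, 3 or 4, and the adjusted p ran from 3.92e-06 to 0.155 over the alternatives. The ratio of Gad2 to Gad1 normalized counts was 0.593 ± 0.0376 in L192P and 0.485 ± 0.0589 in WT (SD, n = 4 each), and WT replicate 1 at 0.561 lay above L192P replicate 2 at 0.54.

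Slc32a1, the transporter that loads GABA into vesicles, had 2810, 3207, 2968 and 3055 normalized counts in L192P and 2730, 2623, 2865 and 2724 in WT. Only L192P replicate 1 fell within the WT values. Its log2 fold change was 0.14 (SE 0.062), with an unadjusted p of 0.0251 and a DESeq2 adjusted p of 0.391. No alternative called it.

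**Figure D2:**
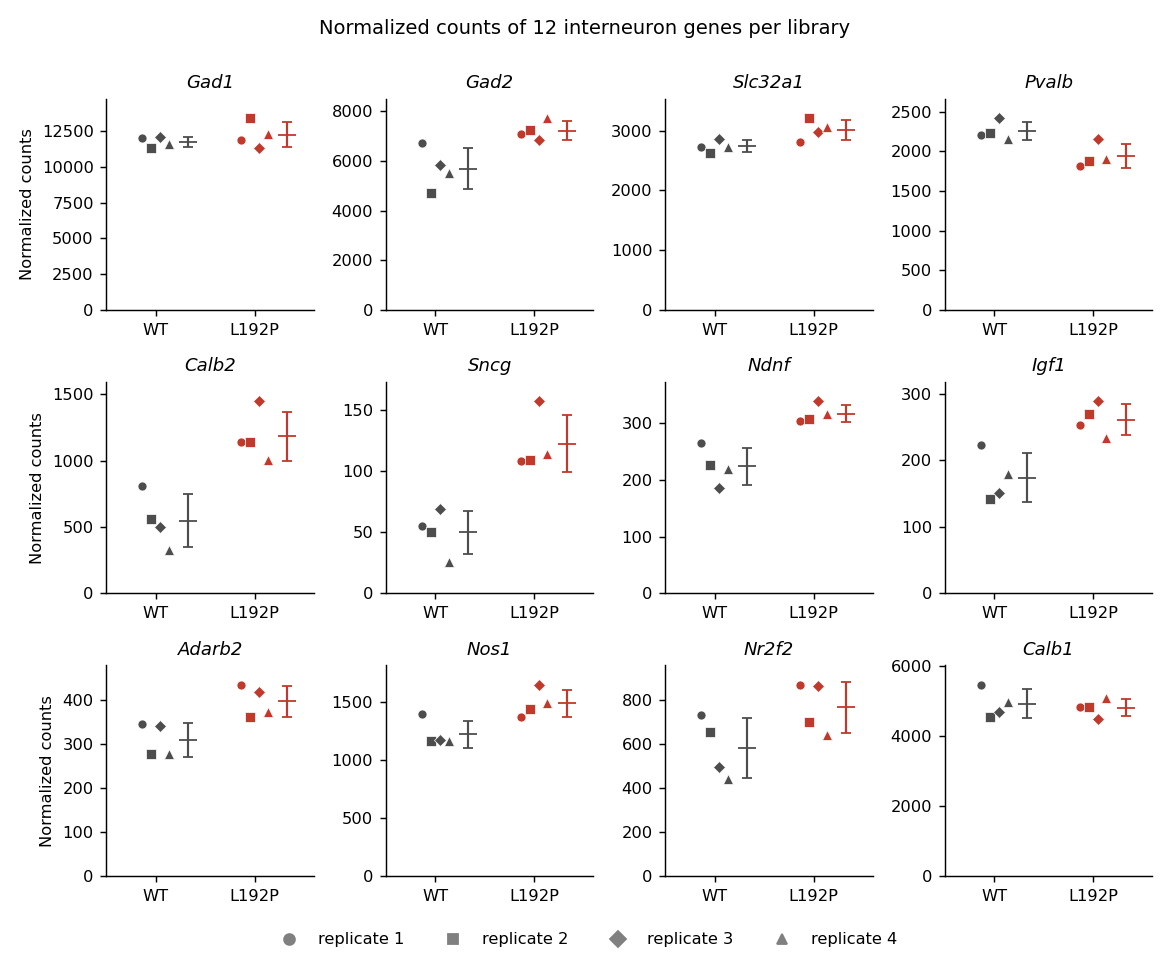
Normalized counts of 12 members in each library (y axes from 0), with a symbol per replicate number, WT in grey and L192P in red, and the mean ± SD of 4 libraries beside the points. Calb2, Sncg, Ndnf, Igf1, Gad2 and Adarb2 show every L192P point above every WT point, and WT replicate 1 is the highest WT point for Calb2, Ndnf, Igf1, Gad2, Nos1 and Nr2f2.

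Of the 3 calcium-binding proteins, Calb2 was called higher. Calretinin, encoded by Calb2, buffers calcium in a bipolar, caudally derived class of interneurons and also in Cajal-Retzius cells of layer 1 and in several neuron groups outside the cortex. Calb2 stood at 1141, 1138, 1446 and 1004 normalized counts in L192P against 807.7, 560.4, 496.4 and 326.6 in WT. Every L192P library exceeded every WT library, and the WT values themselves spread over a wide range. Means were 1182 ± 187 and 547.8 ± 199 (SD, n = 4 each), the log2 fold change was 1.11 (SE 0.29), and the DESeq2 adjusted p was 0.0144. It fell short without L192P replicate 1, 2 or 3 and without WT replicate 2 or 3, with adjusted p from 8.97e-07 to 0.116 over the alternatives. Between same-numbered libraries the log2 ratio was 0.50, 1.02, 1.54 and 1.62 for replicates 1 to 4.

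Parvalbumin, encoded by Pvalb, marks fast-spiking basket and chandelier cells from the medial eminence. Its L192P values were 1815, 1878, 2157 and 1907 normalized counts, and its WT values were 2212, 2236, 2419 and 2153. L192P replicate 3 lay above the lowest WT library by a few counts, and the other L192P libraries lay below all of WT. The mean was 1939 ± 150 in L192P and 2255 ± 115 in WT (SD, n = 4 each), with a log2 fold change of -0.22 (SE 0.072, DESeq2 adjusted p = 0.121). With the replicate block Pvalb was called lower (adjusted p = 0.00907), as it was without L192P replicate 3, with adjusted p between 0.00907 and 0.507 across the alternatives. Within each replicate number L192P was lower than WT, with log2 ratios of -0.29, -0.25, -0.17 and -0.17.

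Calbindin, encoded by Calb1, is found in many somatostatin cells and in some excitatory neurons. Calb1 had a mean of 4810 ± 242 normalized counts in the L192P libraries and 4924 ± 412 in the WT libraries (SD, n = 4 each), a log2 fold change of -0.033 (SE 0.072, DESeq2 adjusted p = 0.968).

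Among the 5 transcription factors none was called by DESeq2, edgeR or limma-voom, with Nr2f2 alone under an unadjusted p of 0.05. Nr2f2 (COUP-TFII) is kept by many interneurons of caudal origin. Nr2f2 had 871.6, 699.9, 863.6 and 640.9 normalized counts in L192P and 732.1, 658.1, 497.5 and 443.7 in WT. The groups overlapped, since WT replicate 1 lay above L192P replicates 2 and 4, while WT replicates 3 and 4 lay below all of L192P. Its log2 fold change was 0.40 (SE 0.15, DESeq2 adjusted p = 0.229). The replicate block called it higher at an adjusted p of 0.0118, within a range of 0.0118 to 0.684 over the alternatives.

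Maf and Sox6, which direct the medial classes, had log2 fold changes of 0.13 and 0.11. Sp9, which acts in newborn interneurons, was at 0.024, and Npas1, a repressor of interneuron genes, was at -0.14. Their DESeq2 adjusted p-values lay between 0.764 (Maf) and 0.993 (Sp9). Direction was not settled for Sp9, which turned negative when any of 4 single libraries was left out.

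Of the 8 receptors and signalling genes, Igf1 was called. Insulin-like growth factor 1 is made by some interneurons in the adult cortex and also by microglia and other cells. Igf1 gave 252.2, 269.7, 288.3 and 233.6 normalized counts in L192P and 223.1, 141.2, 151.0 and 179.1 in WT. The lowest L192P library, replicate 4, lay just above the highest WT library, replicate 1. With means of 260.9 ± 23.4 and 173.6 ± 36.7 (SD, n = 4 each), its log2 fold change was 0.59 (SE 0.15, DESeq2 adjusted p = 0.016). That call was lost without L192P replicate 2 or 3 and without WT replicate 2, 3 or 4, and in edgeR (adjusted p = 0.135, within 1.32e-04 to 0.147 over the alternatives). The 5 microglial markers summed to 3624, 6143, 6584 and 5455 normalized counts in L192P replicates 1 to 4. In WT the sums were 3785 to 4910, with replicate 1 lowest in both genotypes. L192P replicates 2 to 4 lay above every WT library, and all 5 markers had a log2 fold change above 0 (0.22 to 0.33). None of them was called by DESeq2, edgeR or limma-voom (2 at an unadjusted p under 0.05 in DESeq2), and the replicate block called Cx3cr1 higher. Their part in the Igf1 result was not tested.

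Nos1, neuronal nitric oxide synthase, marks neurogliaform cells and the sparse long-range interneurons that also carry Chodl and Tacr1. It stood at 1369, 1436, 1646 and 1488 normalized counts in L192P and 1395, 1158, 1169 and 1162 in WT. WT replicate 1 lay far above the other 3 WT libraries and above L192P replicate 1. The log2 fold change was 0.28 (SE 0.087, DESeq2 adjusted p = 0.0728). With the replicate block the adjusted p was 0.0258, within 2.19e-04 to 0.341 over the alternatives, and Nos1 was also called without L192P replicate 1 and without WT replicate 1.

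The other receptors and signalling genes had log2 fold changes between -0.11 and 0.11. Erbb4, the neuregulin receptor of interneurons, was at 0.11, Tacr1, the substance P receptor, at 0.10, and Pthlh, a hormone-like peptide of basket cells, at 0.094. Kit, a receptor tyrosine kinase, was at -0.021, Crhbp, which binds corticotropin-releasing hormone, at -0.035, and Cnr1, the CB1 cannabinoid receptor of Cck basket cells, at -0.11. The sign for Kit changed under total-count scaling, to 0.0037, and the signs of Kit and Crhbp also changed when single libraries were left out. DESeq2 adjusted p-values for these 6 genes lay between 0.728 (Erbb4) and 0.988 (Kit).

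Ndnf was the called member of the 6 synaptic and matrix genes. Neuron-derived neurotrophic factor marks neurogliaform and related cells of layer 1. Ndnf was at 304.6, 308.4, 339.0 and 317.4 normalized counts in L192P and at 265.0, 226.0, 185.8 and 220.1 in WT. The L192P libraries lay close together and all above WT, among which replicate 1 was the highest. Its mean was 317.3 ± 15.4 in L192P and 224.2 ± 32.5 in WT (SD, n = 4 each), with a log2 fold change of 0.50 (SE 0.12, DESeq2 adjusted p = 0.00921). Leaving out L192P replicate 3 or 4, or WT replicate 2, 3 or 4, ended the call, as did edgeR (adjusted p = 0.0961, within 9.42e-04 to 0.1 over the alternatives).

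Reelin, encoded by Reln, is shared by layer 1 interneurons, somatostatin cells and Cajal-Retzius cells. Its log2 fold change was 0.058 (SE 0.10), with a mean of 1389 ± 160 normalized counts in the L192P libraries and 1335 ± 149 in the WT libraries (SD, n = 4 each). Nxph1, a neurexin ligand of medial interneurons, was at 0.17 on the log2 scale, Elfn1, a postsynaptic organizer on somatostatin cells, at 0.088, Hapln1, a link protein of perineuronal nets, at 0.0089, and the synaptic vesicle protein gene Synpr at -0.085. None of these 5 was called, with DESeq2 adjusted p from 0.58 (Nxph1) to 0.997 (Hapln1).

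Sncg is expressed by a Cck-rich basket subclass in the cortex. It was counted at 108.4, 109.2, 156.8 and 113.8 normalized counts in L192P and at 54.64, 49.71, 68.44 and 25.75 in WT. The groups were well apart, with L192P replicate 3 the highest of all and WT replicate 4 the lowest. Means were 122.1 ± 23.3 and 49.63 ± 17.8 (SD, n = 4 each), the log2 fold change was 1.29 (SE 0.24), and the DESeq2 adjusted p was 6.88e-05. Same-numbered libraries differed by 0.99, 1.14, 1.2 and 2.14 on the log2 scale for replicates 1 to 4. Sncg lies at chr14:34092231-34100539 (GRCm39, minus strand), where 314 bases of its exons overlap exons of Mmrn2 on the opposite strand. Whether strand was used in counting is not given in the sources used here, so reads of the overlap may belong to either gene. Such opposite-strand overlaps with any annotated exon touch 13 of the 28 members, and among the other called members there was none.

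Adarb2, a marker of nearly all caudally derived interneurons, was at 434.4, 361.9, 418.5 and 372.5 normalized counts in L192P and 346.0, 276.8, 340.0 and 276.3 in WT. Every L192P library lay above every WT library, and replicates 1 and 3 were the higher ones in both genotypes. The log2 fold change was 0.36 (SE 0.12, DESeq2 adjusted p = 0.107). With the replicate block the adjusted p was 0.0494, within 0.0326 to 0.452 over the alternatives. The log2 ratios of same-numbered libraries were 0.33, 0.39, 0.30 and 0.43, the most even set among the members with separate groups.

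Chodl, which marks sparse long-range interneurons, was the least abundant member, with a mean of 45.74 ± 12 normalized counts in the L192P libraries and 32.92 ± 13.7 in the WT libraries (SD, n = 4 each). Its log2 fold change of 0.47 had an SE of 0.33 (DESeq2 adjusted p = 0.76). At this depth a change of that size could not be told from the spread.

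**Figure D3:**
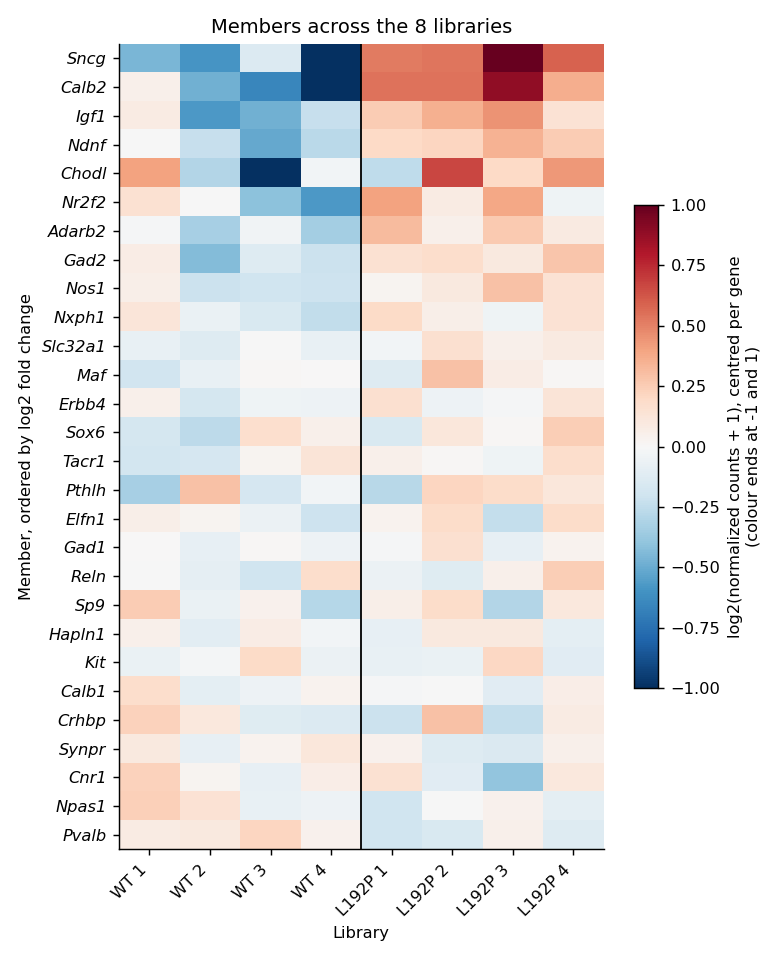
Log2(normalized counts + 1) of each member (rows, ordered by log2 fold change) in each library (columns), centred on the gene's mean over the 8 libraries, red above and blue below it. Sncg and Calb2 are red in all L192P columns, WT 1 is paler or redder than the other WT columns for Calb2, Igf1, Ndnf, Nr2f2 and Gad2, and the lower rows are pale in both genotypes.

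Sorting the members by where their cells are born is a grouping made after the values were known, and it is given with no test. The 7 caudal markers (Calb2, Sncg, Ndnf, Adarb2, Nr2f2, Npas1 and Cnr1) had a median log2 fold change of 0.40 and a range of -0.14 to 1.29. DESeq2 called 3 of them higher (0.789% of all genes) and the replicate block called 5 (1.82%), and L192P lay above WT without overlap in 4 (3.01%). The 11 medial markers (Pvalb, Sox6, Maf, Nxph1, Nos1, Chodl, Crhbp, Elfn1, Hapln1, Pthlh and Tacr1) had a median of 0.10 and a range of -0.22 to 0.47. None of the 11 was called by DESeq2, edgeR or limma-voom (2 at an unadjusted p under 0.05 in each, Nos1 higher and Pvalb lower), the replicate block called those same 2, and in none were the groups apart. The ranges of the 2 sets overlapped, and Npas1 and Cnr1 had negative values in the caudal set. Nos1 was placed in the medial set though it also marks neurogliaform cells, so the sets are not strict. Members placed in neither set included Reln (0.058), Kit (-0.021), Synpr (-0.085) and Igf1 (0.59). Caudal markers outside the 28 members had log2 fold changes of -0.30 (Lamp5), 0.0054 (Vip), -0.045 (Prox1), 0.28 (Htr3a), 0.25 (Sp8) and 0.024 (Cxcl14).

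Some members were also set against Gad1, which all interneurons use. Other GABA neurons, such as striatal projection neurons, use Gad1 too, so these ratios are not levels per interneuron. Markers of striatal projection neurons summed to 26370 to 34122 normalized counts in L192P and 34596 to 42773 in WT. The part of those neurons in the Gad1 values was not tested. Calb2 over Gad1 was 0.0975 ± 0.0209 in L192P and 0.0466 ± 0.0164 in WT, a ratio of normalized counts (SD, n = 4 each). Sncg over Gad1 was 0.0101 ± 0.00255 and 0.00421 ± 0.00144. Pvalb over Gad1 was 0.16 ± 0.0215 in L192P and 0.192 ± 0.00785 in WT, where L192P replicate 3 at 0.19 fell among the WT values. For Ndnf over Gad1 the values were 0.0261 ± 0.00285 and 0.0191 ± 0.00282.

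Levels between genes can be compared only per length, as normalized counts per kilobase of exon. In WT, Gad1 was the highest member at 1127 ± 34.5 per kilobase, followed by Gad2 at 874 ± 126, Calb1 at 695 ± 58.1, Pvalb at 605 ± 30.8 and Slc32a1 at 546 ± 19.8 (SD, n = 4 each). Gad2 and Calb1 overlapped between libraries, as did Calb1 and Pvalb, while Gad1 stood apart from Gad2 and Pvalb from Slc32a1. Calb2 ranked 8th at 289 ± 105 in WT and 4th at 623 ± 98.6 in L192P. At the low end, Ndnf (21.6), Igf1 (17) and Sncg (10.4) overlapped with their neighbours in WT, and Chodl came last at 5.75. So 3 of the 5 called members were among the 4 least abundant per length in WT.

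Libraries also differed in how many members they led. L192P replicate 3 was the highest of the 8 libraries for 7 members and the lowest for 6. WT replicate 2 was the lowest for 8 members (28.6%, against 14.5% of all genes tested), and WT replicates 2, 3 and 4 were each the highest for 1 member. The coefficient of variation among 4 libraries had a median over members of 8.91% in L192P and 10.8% in WT, with a range of 4.85% to 26.3% and of 3.06% to 41.5%.

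A further 45 genes of interneurons, in 5 lists, were read beside the members. DESeq2 called 2 of them higher (0.789% of all genes) and 2 lower (0.569% of all genes), and their median log2 fold change was 0.0091. GABA handling held 1 called gene of 7: Slc6a13, a GABA transporter of the meninges and vessels, with a mean of 251.8 ± 77.9 normalized counts in the L192P libraries and 142.9 ± 32.2 in the WT libraries (log2 fold change 0.81, SE 0.22, DESeq2 adjusted p = 0.0229). Slc6a12, another non-neuronal transporter, had the largest log2 fold change in the list at 0.86 (SE 0.52, DESeq2 adjusted p = 0.661).

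None of the 12 interneuron transcription factors was called by DESeq2, edgeR or limma-voom. At an unadjusted p under 0.05, DESeq2 gave Dlx5 and Lhx6 higher and Satb1 lower. Dlx5 and Dlx2, general interneuron factors, both had a log2 fold change of 0.30. Satb1 was called lower with the replicate block, at a log2 fold change of -0.19.

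The fast-spiking list, made of channels, matrix and metabolic genes of parvalbumin cells, gave 0 of 9 called by each tool and 0 of 9 at an unadjusted p under 0.05 in DESeq2. Its log2 fold changes lay between -0.21 (Acan, the core protein of perineuronal nets) and 0.051 (Kcnc1, a fast potassium channel), with a median of -0.016. Pvalb, at -0.22, was thus just below the lowest value of that list. Of 8 other subclass markers DESeq2 called none (3 higher and 2 lower at an unadjusted p under 0.05), and neither did edgeR or limma-voom. In that list Chat had the largest log2 fold change at 0.39. Lamp5, a marker of neurogliaform cells, had -0.30 and was called lower with the replicate block.

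Of the 9 interneuron neuropeptides, DESeq2 called Penk and Cck lower and Tac2 higher. Penk, the precursor of enkephalins, was at 6334, 7883, 6750 and 8814 normalized counts in L192P and 10246, 10306, 9680 and 12205 in WT. The groups did not overlap, and the log2 fold change was -0.51 (SE 0.10, DESeq2 adjusted p = 2.86e-04). Cck, found in basket cells and in many excitatory neurons, was at -0.23 (SE 0.069), just inside the threshold at a DESeq2 adjusted p of 0.0498. Tac2, the neurokinin B precursor, rose from 144.2 ± 10.5 to 209.1 ± 24.7 normalized counts (SD, n = 4 each), a log2 fold change of 0.53 (SE 0.14, DESeq2 adjusted p = 0.0144). The summed level of the 9 peptides was 21511 to 26870 normalized counts in L192P and 28103 to 30484 in WT. edgeR and limma-voom called none of these 45 genes (14 had an unadjusted p under 0.05 in DESeq2, against 1758 of 18627 genes tested). The replicate block called 7, adding Npy, Lamp5 and Satb1, all lower, to the 4 called by DESeq2 without it. Over all genes tested, the block called 1.82% higher and 2.43% lower. Penk was called by DESeq2 whichever single library was left out, though not without replicate 1 of both genotypes, and it was the only one of the 45 still called without L192P replicate 3, WT replicate 3 or WT replicate 4. Without L192P replicate 1 or WT replicate 2, Slc6a13 and Penk were called.

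Several markers of other cells and regions moved with genotype. The 5 Cajal-Retzius markers, for the layer 1 cells that also carry Calb2 and Reln, summed to 155.7 to 359.7 normalized counts in L192P and 52.68 to 92.33 in WT. All 5 were above 0 in log2 fold change, and DESeq2 called Lhx5 (2.77) and Ebf3 (2.02) higher, against 0.789% of all genes. edgeR called Ebf3 only, limma-voom called none (4 at an unadjusted p under 0.05), and none had an adjusted p with the replicate block. Lhx1, a defining gene, was at 0 in WT replicate 4. Reln itself, named above, was not called, at a log2 fold change of 0.058. Which cells gave the RNA of these 5 markers was not tested.

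Hypothalamic markers summed to 829.6, 237.8, 1246 and 751.1 normalized counts in L192P replicates 1 to 4 and to 129.3 to 262.2 in WT. DESeq2 called Avp, Oxt and Gal higher (3 of the 8 listed, 6 of which were tested), against 0.789% of all genes. edgeR called Avp and Oxt, limma-voom called none (4 at an unadjusted p under 0.05), and the replicate block called Avp and Trh. Pmch and Hcrt were at 0 in at least 1 library. The hypothalamic sum of L192P replicate 2 lay within WT. Oxt in that library, at 19.35 normalized counts, was above the WT range of 2.732 to 7.604, and its Cajal-Retzius sum of 199.1 was above WT as well.

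Striatal projection neuron markers summed to 26370 to 34122 normalized counts in L192P and 34596 to 42773 in WT, so that the groups did not overlap. All 7 had a log2 fold change below 0. Penk is also abundant in striatal projection neurons, and the part of these in its value was not tested.

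Excitatory cortical markers summed to 37985 to 42741 normalized counts in L192P and 43277 to 45560 in WT, again apart, with all 8 log2 fold changes below 0. None was called by DESeq2, edgeR or limma-voom (3 lower at an unadjusted p under 0.05 in each), and the replicate block called 3 lower. Thalamic markers summed to 2191 to 5470 in L192P and 2099 to 2644 in WT, and all 6 had a log2 fold change above 0 (0.22 to 1.52). DESeq2, edgeR and limma-voom called none of the 6 (2 at an unadjusted p under 0.05 in DESeq2), and the replicate block called Slc17a6 higher. For olfactory bulb markers the sums were 379.7 to 840.5 and 261.8 to 395.4, with Eomes called higher by DESeq2 but not by edgeR or limma-voom (log2 fold change 1.70) and Tbx21 at 0 in some libraries. The sums of dentate and hippocampal, astrocyte, oligodendrocyte, endothelial and choroid plexus markers overlapped between the genotypes, and DESeq2, edgeR and limma-voom called none of those genes (Cdh5 of endothelial cells alone had an unadjusted p under 0.05 in DESeq2). The part of these other cells and regions in the differences of Calb2, Sncg, Ndnf, Gad2 and Nr2f2 was not tested.

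**Figure D4:**
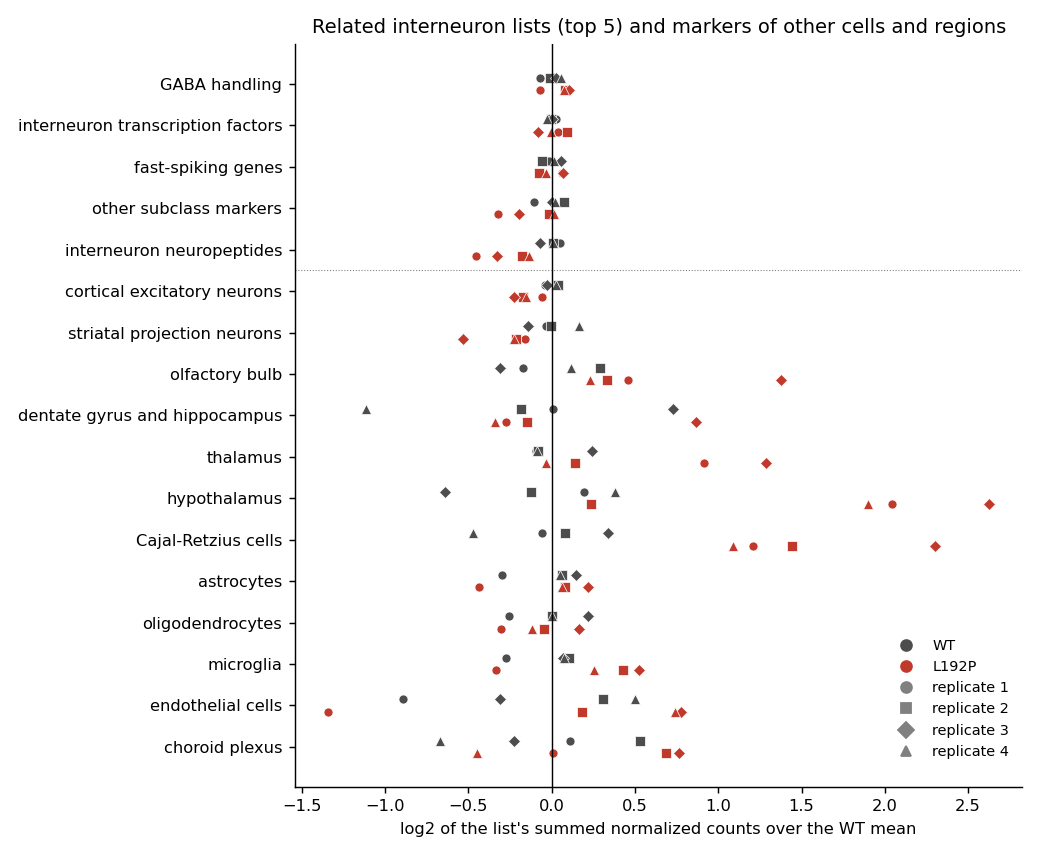
Log2 of each list's summed normalized counts over the WT mean (x axis) in each library, with WT in grey, L192P in red and a symbol per replicate number. Cajal-Retzius sums lie to the right of WT in all 4 L192P libraries, hypothalamic sums in 3 of 4, and neuropeptide, excitatory and striatal sums lie to the left.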

How the data were processed

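Libraries were made from cortical RNA with a stranded mRNA kit. The authors aligned reads to GRCm39 with STAR (2.7.9a in the submitters' processing notes) and deposited counts per gene from featureCounts 1.5.1, replicates kept apart; strand setting and Ensembl release are not given in the sources used here. A second deposited table holds the authors' normalized signal, which equals the counts divided by DESeq2 size factors.

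DESeq2 1.42.0 (R 4.3.3) was fitted to the counts of all genes with genotype as the only term, without fold change shrinkage, and p-values were adjusted over all genes tested (Benjamini-Hochberg, threshold 0.05), after the study's methods. The members and lists were chosen with earlier results of these data known. All members are named. Values per library are given for Gad1, Gad2, Slc32a1, Pvalb, members called with or without the block, and the 6 smallest unadjusted p-values. From other lists, called genes and the 2 largest fold changes at a mean of at least 10 were eligible, and some of these are not reported here. Deviations from the group means correlated between same-numbered libraries at 0.63, 0.38, 0.23 and 0.33 over 13422 genes (different numbers: -0.38 to 0.14), so a fit with the number, given by the labels, as a block was added.

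The 17 alternatives were edgeR 4.0.16, limma-voom 3.58.1, TMM or total-count factors, a filter of 10 counts in 4 libraries, independent or Cook filtering off, the block, each library left out, and replicate 1 of both genotypes left out. Programs were tested on simulated data. Positions and lengths came from GENCODE M39, with 98.8% of identifiers found.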

Additional observations from a re-analysis of the deposited data

Results flagged for a closer look

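In groups of 4 libraries, a value was set aside for a closer look by Dixon's test at the 95% level, which divides the distance from an extreme value to its neighbour by the whole range. Of 90 groups screened, 8 were set aside, where chance would give about 4.5, and 4 of those 8 were among the 56 groups of members. Chance flags about 1 in 20 groups.

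Sncg in L192P replicate 3 was at 156.8 normalized counts, with the other L192P libraries at 108.4 to 113.8. Without that library Sncg was still called by DESeq2. Nos1 in WT replicate 1 was at 1395, with the other WT libraries at 1158 to 1169, and Nos1 was called higher when it was left out. Kit in L192P replicate 3 was at 1196 (others 960.7 to 993.5), and Kit in WT replicate 3 was at 1183 (others 993.5 to 1024), so the same replicate number stood out in both genotypes.

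Among the marker sums, L192P replicate 3 was high for olfactory bulb genes at 840.5 normalized counts (others 379.7 to 444.7) and for dentate and hippocampal genes at 1698 (others 735.5 to 839.8). WT replicate 3 was high for thalamic genes at 2644 (others 2099 to 2113), and WT replicate 1 was low for microglial genes at 3785 (others 4787 to 4910). The cause of these values was not tested.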

How the results depend on the processing

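TMM or total-count factors, the count filter and both filtering switches left the 5 members called higher and 0 lower. The count called higher was 2 in edgeR, 2 in limma-voom (Calb2 and Sncg in each) and 8 with the replicate block, and with 1 library left out it ran from 1 (without WT replicate 2 or 3) to 8 (without WT replicate 1). The count called lower was 1 with the block (Pvalb) and 0 to 1 with 1 library left out. Of the related genes, edgeR called 0, limma-voom 0 and the block 7, with 1 to 6 when libraries were left out. The median over the members stayed between 0.071 (without L192P replicate 4) and 0.13. Kit turned to 0.0037 under total-count factors. With 1 library left out, the log2 fold change lay within -0.072 to 0.021 for Calb1, -0.057 to 0.12 for Sp9, -0.096 to 0.04 for Kit, -0.15 to 0.037 for Crhbp, -0.019 to 0.13 for Reln and -0.031 to 0.042 for Hapln1, the members whose sign changed. Without replicate 1 of both genotypes Calb1 was at 0.019 and Crhbp at 0.10. Over all genes, 253 were called by DESeq2, 53 by edgeR, 45 by limma-voom, 533 with the block and from 112 to 496 with 1 library left out; the causes were not tested. Chodl, at means of 45.74 and 32.92 normalized counts, had an SE of 0.33.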
